A study of Mus musculus with 2 samples.

Results

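The intronic crosslink sites of Tia1 in LPS-activated mouse B cells comprised 24105 of the 422150 low-FDR sites of the pooled list (5.71%), with 37029 of its 867271 unique cDNAs (4.27%). A site was taken as intronic where it lay inside a GENCODE M21 gene on its own strand but in no annotated exon of any transcript. Individual-nucleotide crosslinking and immunoprecipitation (iCLIP) links protein to RNA with UV light and reads the bound nucleotide from the place where reverse transcription stops, and each unique cDNA is counted once at that nucleotide. Splenic B cells of C57BL/6 mice had been stimulated in culture with LPS (10 µg/ml) for 48 h, the nuclei had been removed before immunoprecipitation, and the 2 samples (replicates 1 and 2) formed a single group, with no control sample analysed here. The titles name Tia1, the antibody field names the related protein Tial1 and the methods name a Tia1-specific antibody, and the UV dose and RNase concentration also differ between labels and methods. The protein is called Tia1 here, as in the titles. Without a control sample background crosslinking was not measured, and with a single group no comparison over samples could be tested.

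Introns are removed from the pre-mRNA in the nucleus, after U1 snRNP has paired with the 5′ splice site at the start of the intron and U2AF has bound the polypyrimidine tract before the 3′ splice site at its end. Tia1 and Tial1 are RNA-binding proteins that recognise U-rich RNA. In the nucleus they are known to bind U-rich stretches just downstream of weak 5′ splice sites, where they help to recruit U1 snRNP, and in the cytoplasm they bind 3′UTRs and act in stress granules and in translational control.

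The starts of introns with many cDNAs next to a 5′ splice site are shown first, because they display where the crosslinks lay relative to the splice site. Each sequence gives the first 60 nt of the intron in GRCm38, 5′ to 3′ in DNA letters, and capitals mark the nucleotides that held at least 1 cDNA in the pooled list. The introns of Snx2, of which one had the most such cDNAs, are not printed. The intron of Tial1 was added from the list of exons under Tia1 or Tial1 control.
A630001G21Rik (chr1:85725061-85725120, minus strand): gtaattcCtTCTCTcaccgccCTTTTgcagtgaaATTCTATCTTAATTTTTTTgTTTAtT
Mir142hg (chr11:87755614-87755673, plus strand): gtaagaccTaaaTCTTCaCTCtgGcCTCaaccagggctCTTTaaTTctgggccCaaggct
AU020206 (chr7:75780565-75780624, minus strand): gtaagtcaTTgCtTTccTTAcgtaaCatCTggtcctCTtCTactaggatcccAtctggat
E330020D12Rik (chr1:153414085-153414144, minus strand): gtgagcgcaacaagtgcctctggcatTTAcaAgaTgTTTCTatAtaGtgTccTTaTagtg
Rabggtb (chr3:153911865-153911924, minus strand): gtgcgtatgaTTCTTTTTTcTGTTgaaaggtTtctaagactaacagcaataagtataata
Zfp207 (chr11:80394532-80394591, plus strand): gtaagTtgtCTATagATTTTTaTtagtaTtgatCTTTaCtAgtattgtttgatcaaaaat
Hnrnpa1 (chr15:103245967-103246026, plus strand): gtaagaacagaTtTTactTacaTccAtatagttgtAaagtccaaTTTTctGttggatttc
Tial1 (chr7:128446671-128446730, minus strand): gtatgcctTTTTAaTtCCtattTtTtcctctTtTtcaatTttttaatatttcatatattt
Gm11205 (chr11:79704667-79704726, plus strand): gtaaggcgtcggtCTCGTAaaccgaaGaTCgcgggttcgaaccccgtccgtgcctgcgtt

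In these stretches the splice site itself and the nucleotides next to it carried almost no crosslinks, and the capitals began a few nucleotides further on. They often sat on T, and in some introns, such as Rabggtb and Zfp207, on runs of T. In E330020D12Rik they began later, near the middle of the stretch. Gm11205 differed, since its sites lay in a tRNA gene of RefSeq (n-TTcgt3). Of the 49 cDNAs of the Gm11205 intron, 25 came from replicate 1 and 24 from replicate 2.

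The intronic share of the cDNAs was small in both replicates. Replicate 1 had 23184 intronic cDNAs, 3.67% of its total (exact 95% interval 3.62 to 3.71%), and replicate 2 had 5119, or 3.13% (3.05 to 3.21%), a mean of 3.40% ± 0.380 (SD, n = 2). With exons of GENCODE basic transcripts alone the intronic share was 6.52%, and at sites with at least 5 cDNAs it was 1.96%. By comparison, 3′UTRs held 683880 cDNAs, 78.9% of the pooled list. Intervals cover counting error only. Intronic sites were also thinner, with 1.54 cDNAs per site, 73.5% of sites at a single cDNA and at most 93 cDNAs, against 2.11 cDNAs per site, 62.9% and at most 217 in 3′UTRs. The share called in both replicates was lower too. Of the intronic sites, 1333 (5.53%) were called in each replicate alone as well as in the pooled list, 14085 in replicate 1 but not 2, 1941 in replicate 2 but not 1, and 6746 (28.0%) in the pooled list alone, whereas 15.4% of the 3′UTR sites were called in both and 9.75% in the pooled list alone. At the same nucleotide, sites of replicate 1 took up 52.7% of the intronic cDNAs of replicate 2, against 76.4% in 3′UTRs. A count of 0 in a replicate therefore means that no site was called there, not that no cDNA was found.

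Intronic cDNAs accumulated just after the 5′ splice site. Within 50 nt of it lay 6729 cDNAs, 18.2% of all intronic cDNAs (17.8 to 18.6%). An even spread over the exon-free bases of the same host introns, without bases inside a shorter annotated intron, would place 2.49% there, a ratio of 7.29. The ratio was 7.42 in replicate 1 and 7.25 in replicate 2 (7.34 ± 0.117, SD, n = 2), and it fell to 4.62 at sites with at least 5 cDNAs. The distance bin from 11 to 30 nt was the densest, with 12.6% of the cDNAs against 1.01% at an even spread, a ratio of 12.5 in the pooled list, 12.7 in replicate 1 and 12.6 in replicate 2. The first 10 nt showed a ratio of 3.67 and the stretch from 31 to 50 nt a ratio of 3.81, and from 51 to 100 nt the ratio fell to 1.44. The single distance with the most cDNAs was 12 nt in the pooled list (384 cDNAs) and in replicate 1 (231 cDNAs), and 15 nt in replicate 2 (61 cDNAs). Both replicates thus placed the maximum in the same few nucleotides.

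**Figure D1:**
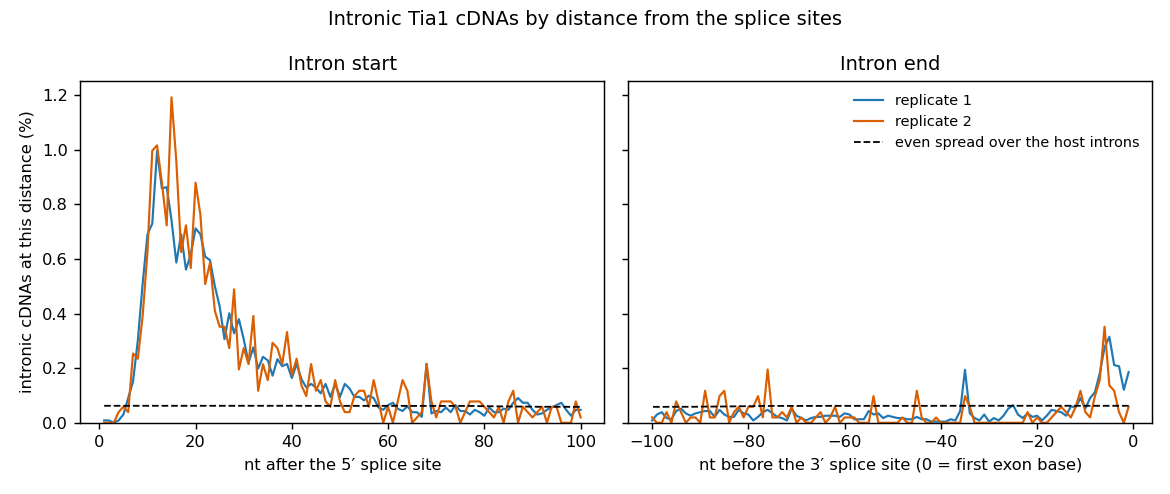
Percentage of intronic cDNAs of each replicate at each nucleotide after the 5′ splice site (left) and before the 3′ splice site (right). Lines are the 2 replicates, and the dashed line is the share at an even spread over the host introns, which both replicates exceeded at each nucleotide from 7 to 47 nt after the 5′ splice site and neither did in the first 5 nt, with the summit at 12 nt in replicate 1 and 15 nt in replicate 2.

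The 5′ splice site signal was spread over many genes. It came from 1161 of the 3895 introns with a site, in 883 host genes, and the 100 introns with the most such cDNAs held 30.7% of it. In 846 of these introns no intronic cDNA lay anywhere else, and in 141 of the 1161 both replicates had called sites within 50 nt. Over all introns with a site, 505 of 3895 (13.0%) had sites of both replicates. Within 50 nt of the 5′ splice site, 36.8% of the replicate 2 sites were also called in replicate 1, against 41.5% of those over 50 nt from both splice sites. Snx2, which encodes a sorting nexin of the endosome, stood highest. Its intron 3 (661 nt, chromosome 18) had 131 cDNAs within 50 nt of the 5′ splice site, 93 in replicate 1 and 38 in replicate 2. This intron follows a 22-nt exon that another annotated transcript skips, and intron 2 on the other side of that exon held a further 41 cDNAs within 50 nt of its own 5′ splice site, 23 in replicate 1 and 16 in replicate 2. A RefSeq exon of Snx2 covered all intronic sites of intron 3.

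The next introns were those whose starts are printed above. A630001G21Rik intron 3 held 66 such cDNAs (49 in replicate 1 and 17 in replicate 2), and Mir142hg, the host transcript of the haematopoietic miR-142, had 59 in its only intron (37 and 22). AU020206, a lincRNA, had 47 (40 and 7), and E330020D12Rik had 39 (26 and 13). Rabggtb encodes a subunit of the enzyme that prenylates Rab proteins, and all 36 cDNAs of its intron 2 lay there, 23 in replicate 1 and 13 in replicate 2. Zfp207, which encodes a spindle assembly factor, held 34 (22 and 11), and Hnrnpa1, which encodes an abundant splicing repressor, 33 (27 and 6). Each of these introns was thus recovered in both replicates. In Rabggtb and Zfp207, all cDNAs of the intron also lay within 1000 nt after an annotated transcript end of the same gene.

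Introns with 5′ splice site cDNAs were described against the other introns of the same genes, without a test, because the introns are not replicates of a condition. Both sets were limited to introns of at least 100 nt that begin with GT and whose first 50 nt carry no exon, with each 5′ splice site counted once. From nucleotide 7 to 40, the 1104 introns with cDNAs had a mean U share of 44.1%, and the 10689 introns of the same genes without cDNAs had 32.9%. At least 50% U was reached in 32.5% of introns with cDNAs (29.8 to 35.4%), against 10.3% of those without (9.71 to 10.9%). The 5′ splice site began with GTAAGT in 23.5% of introns with cDNAs (20.99 to 26.1%) and in 18.1% of those without (17.4 to 18.9%), and with GTGAGT in 9.87% and 10.96%. The exon upstream of a non-first intron was skipped in another annotated transcript of the gene in 225 of 992 introns with cDNAs (22.7%, 20.1 to 25.4%), against 13.4% of those without (12.7 to 14.1%). In introns with 10 or more cDNAs it was skipped in 43 of 114 (37.7%, 28.8 to 47.3%). Upstream exons of at most 50 nt preceded 9.48% of introns with cDNAs and 4.34% of those without.

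At the 3′ splice site there was no comparable accumulation. Within 50 nt of the intron end lay 2.68% of the cDNAs, against 2.44% at an even spread (ratio 1.10), with a ratio of 1.27 in replicate 1 and 0.80 in replicate 2, so that the replicates fell on either side of an even spread. The last 10 nt stood out, with a ratio of 3.18 in the pooled list, 3.82 in replicate 1 and 2.36 in replicate 2. From 11 to 30 nt before the exon the ratio was 0.68 (0.76 in replicate 1 and 0.47 in replicate 2). The ends of the 5 introns with the most cDNAs there (last 40 nt of the intron, same capitals) follow. In 4 of them the crosslinks lay toward the end of the intron, whereas those of Wwp2 lay at the start of the printed stretch.
Wwp2 (chr8:107556847-107556886, plus strand): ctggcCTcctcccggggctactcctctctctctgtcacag
Hist1h2be (chr13:23585971-23586010, minus strand): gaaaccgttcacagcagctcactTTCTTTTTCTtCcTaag
Serinc3 (chr2:163626478-163626517, minus strand): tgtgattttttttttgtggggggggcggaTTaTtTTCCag
Mndal (chr1:173875861-173875900, minus strand): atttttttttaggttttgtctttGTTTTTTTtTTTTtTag
Utp18 (chr11:93860069-93860108, minus strand): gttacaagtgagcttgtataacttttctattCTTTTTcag

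Wwp2, a ubiquitin ligase gene, led with 52 cDNAs (44 in replicate 1 and 8 in replicate 2). A single C held 47 of them in a stretch of few T. Hist1h2be had 48 (43 and 5) and Serinc3 48 (35 and 13). Mndal, an interferon-inducible gene, had 40 (21 and 19), and Utp18, a ribosome biogenesis gene, 34 (28 and 6). In Hist1h2be, Serinc3, Mndal and Utp18 the capitals sat within the final T-rich stretch before the AG. At the pooled peak, 5 nt before the exon, there were 96 cDNAs.

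Sequence around intronic sites was rich in U. In the 31 nt centred on the site, weighted by cDNAs, U made up 45.2%, whereas the host introns as a whole had 31.8%, a difference of 13.4 percentage points (13.0 in replicate 1 and 14.4 in replicate 2). The windows of 3′UTR sites held 47.0%. Windows with at least 1 run of UUUUU made up 39.0% of intronic cDNAs, against 9.48% at an even spread over the introns, and 47.9% of 3′UTR cDNAs. The crosslinked nucleotide itself was U for 78.2% of intronic cDNAs and 83.2% of 3′UTR cDNAs. Among intronic cDNAs this share was 86.1% within 50 nt of the 5′ splice site (85.3% in replicate 1 and 88.3% in replicate 2). Deeper in the intron it was 77.0% (75.9% and 74.1%), and within 50 nt of the 3′ splice site 60.2% (58.0% and 78.2%). The order of these latter classes thus differed between the replicates. Before the sites near a 5′ splice site, where the window reaches back into the exon, U was scarce, with 25.6% at 30 nt upstream, against 36.8% for 3′UTR sites.

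**Figure D2:**
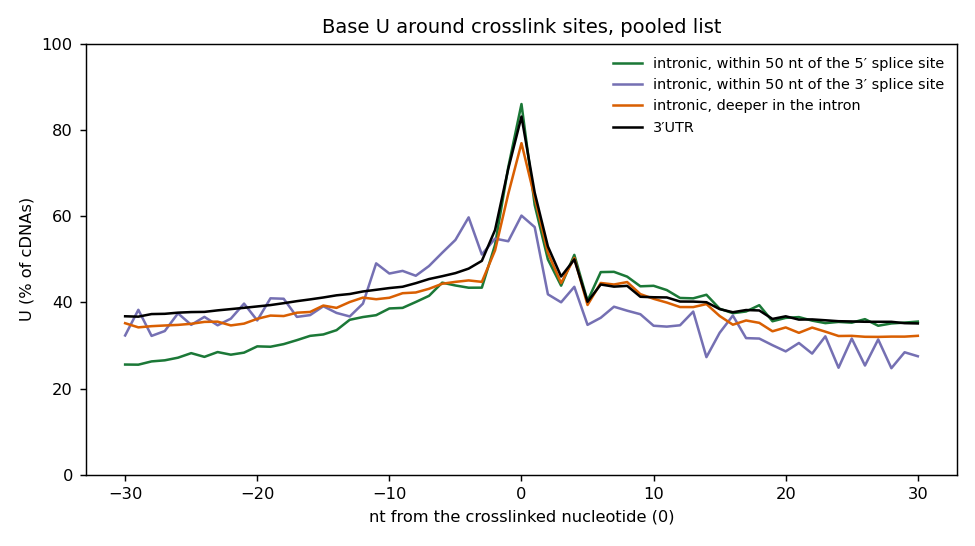
Percentage of cDNAs with U at each nucleotide from 30 nt before to 30 nt after the crosslinked nucleotide (0), pooled list, for intronic sites within 50 nt of the 5′ splice site, within 50 nt of the 3′ splice site and deeper in the intron, and for 3′UTR sites. U peaked at the crosslinked nucleotide in each set, at 86.1%, 60.2%, 77.0% and 83.2%.

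The intronic cDNAs were concentrated in few introns. The intron with the most held 5.92% of them, the first 10 held 18.0%, the first 100 held 38.5% and the first 1000 held 72.5%, and 248 introns were enough for 50%. With the same order of introns, the first 100 held 44.8% in replicate 1 and 47.5% in replicate 2. Both replicates had sites in 505 introns (13.0%), and across the 2760 introns with a site called in either replicate log2(cDNAs + 1) of the replicates had a Pearson correlation of 0.195 and a Spearman correlation of 0.034. Among the 665 introns with 10 or more cDNAs, 419 (63.0%) had none within 50 nt of the 5′ splice site, and 76 had at least 80% there. The share of these introns with at least 1 such cDNA was thus higher than the 29.8% over all 3895 introns. An intron with more cDNAs has more occasions to hold 1 there, so these shares cannot be compared directly.

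**Figure D3:**
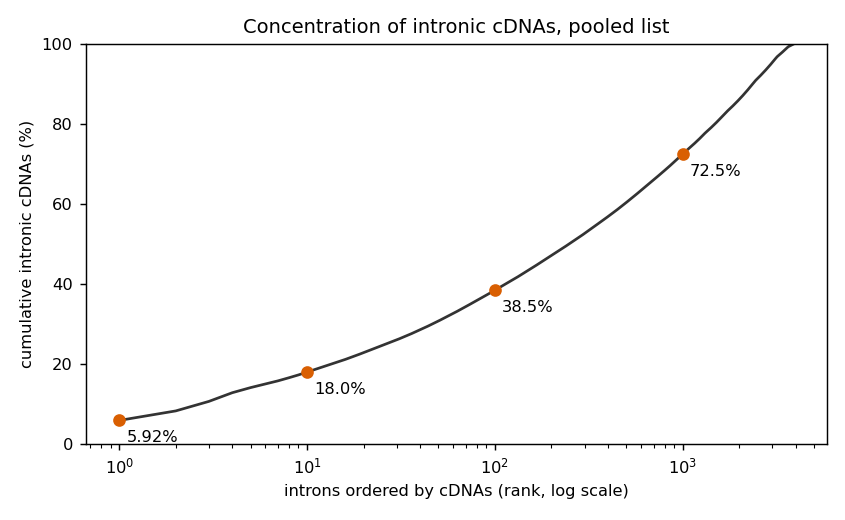
Cumulative percentage of intronic cDNAs (pooled list) over the 3895 introns, ordered by their cDNAs on a logarithmic axis. Points mark the first 1, 10, 100 and 1000 introns, with 5.92%, 18.0%, 38.5% and 72.5% of the cDNAs.

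A total of 2590 genes hosted intronic sites, with a median of 5 cDNAs each. Of them, 2351 were protein-coding and held 83.1% of the cDNAs, and 196 lincRNA, antisense and processed transcript genes held 16.3%. Sites inside more than 1 gene on the strand held 1.88% of the cDNAs and were given to the gene of the shortest intron. Within their span on the same strand, 1774 genes (68.5%) also had a 3′UTR site and 682 had no exonic site. Here and below, exonic and 3′UTR cDNAs of a gene include those in exons of other genes inside its span. In 513 host genes (19.8%) both replicates had called intronic sites. The 20 host genes with the most cDNAs held 25.7%, and each of them had intronic sites in both replicates, with 128 to 1717 cDNAs in replicate 1 and 11 to 416 in replicate 2.

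**Figure D4:**
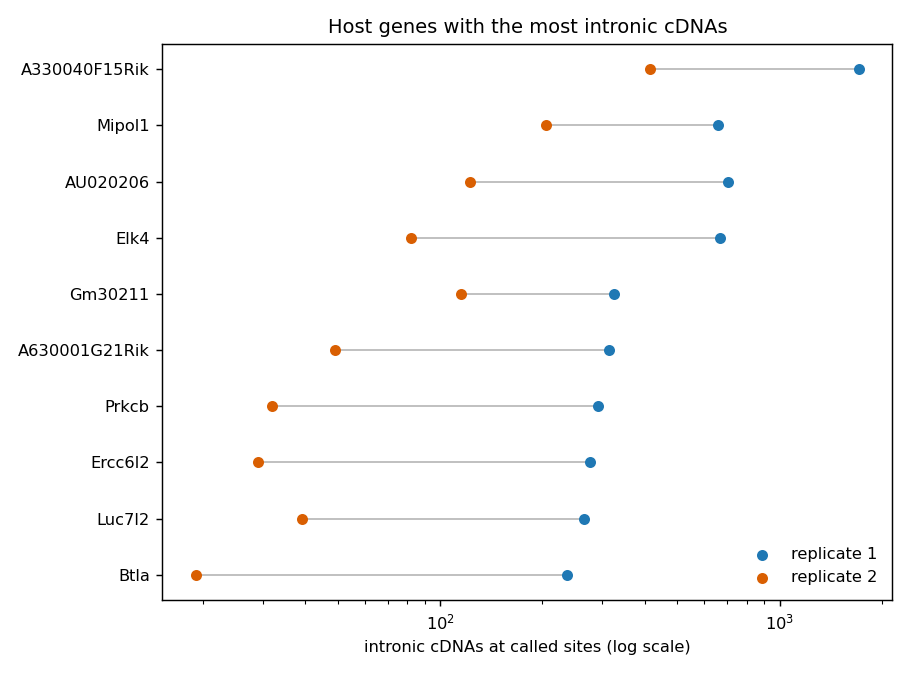
Intronic cDNAs in replicate 1 and replicate 2 (points, logarithmic axis) for the 10 host genes with the most intronic cDNAs in the pooled list, in that order from the top. A330040F15Rik was highest in both replicates, with 1717 and 416 cDNAs, and replicate 2 was below replicate 1 in each gene.

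In several leading hosts the sites lay downstream of an annotated transcript end inside the intron. The densest 80 nt of the 2 leading introns are printed because they show how continuous the crosslinks were (same capitals).
A330040F15Rik (chr19:12528553-12528632, minus strand): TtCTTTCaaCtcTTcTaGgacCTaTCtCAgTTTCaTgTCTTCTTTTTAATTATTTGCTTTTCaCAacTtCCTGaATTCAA
Mipol1 (chr12:57241423-57241502, plus strand): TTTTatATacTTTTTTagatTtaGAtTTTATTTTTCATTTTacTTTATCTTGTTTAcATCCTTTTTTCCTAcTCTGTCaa

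A330040F15Rik, a processed transcript, held 2198 intronic cDNAs (1717 in replicate 1 and 416 in replicate 2). In its intron 2, 2110 of 2192 lay downstream of the annotated end of Gm6545 on the same strand, from 12 to 4227 nt after it. The printed stretch held 322 of them, 247 in replicate 1 and 75 in replicate 2. Mipol1 had 881 (660 and 205), all of them in intron 1, in a RefSeq exon of Prps1l3 and from 19 to 2263 nt after the GENCODE end of that gene. Elk4, which encodes an ETS transcription factor, had 806 (668 and 82), all from 20 to 5102 nt after the end of another Elk4 transcript, in the last intron of a transcript that runs on. AU020206 had 879 (705 and 122) at 593 sites over most of its 10387-nt intron 2, with no annotated transcript end in between and no RefSeq exon.

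**Figure D5:**
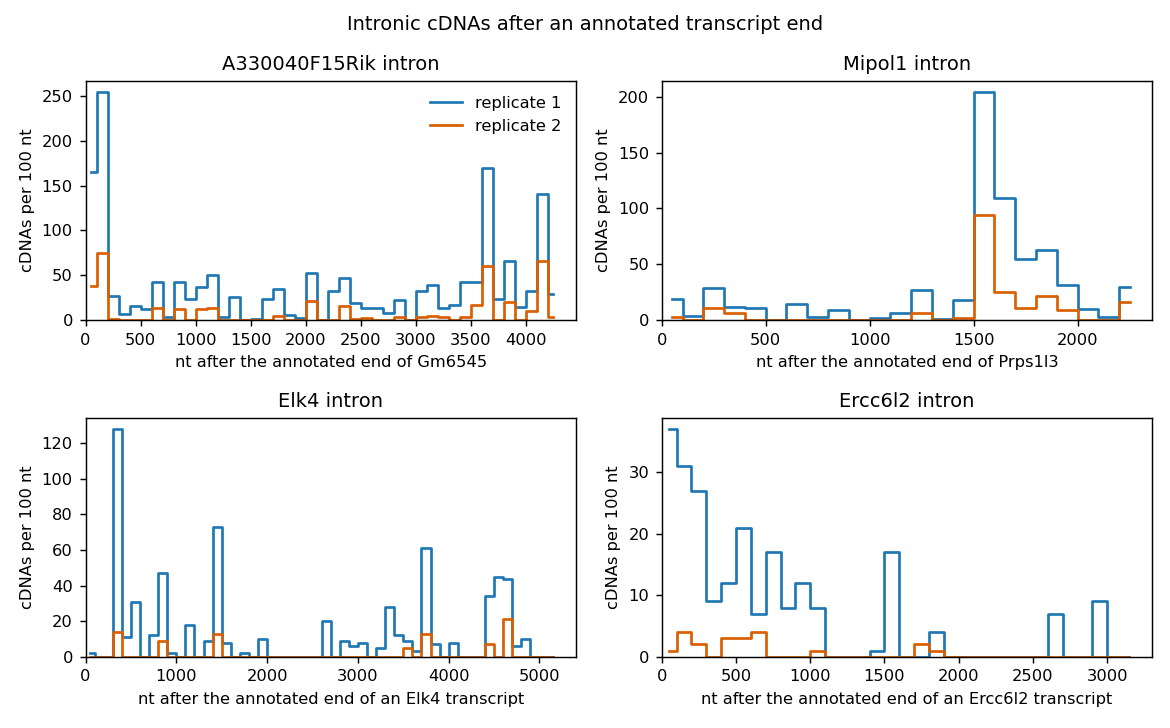
Intronic cDNAs per 100 nt of replicate 1 and replicate 2 (lines) by distance from the annotated transcript end that the sites follow, in the leading intron of A330040F15Rik, Mipol1, Elk4 and Ercc6l2. In A330040F15Rik and Mipol1 the highest bins fell at the same distances in both replicates, whereas in Elk4 the highest bin was centred at 350 nt in replicate 1 and at 4650 nt in replicate 2, and in Ercc6l2 replicate 2 had few cDNAs (21 in all).

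Prkcb and Ercc6l2 had the same layout. Prkcb encodes protein kinase C beta of B cell receptor signalling, and 334 of its 385 intronic cDNAs (291 in replicate 1 and 32 in replicate 2, whole gene) lay in the last intron, all from 15 nt after the end of another Prkcb transcript and all in a RefSeq exon. Ercc6l2, a DNA repair gene, had 360 (277 and 29), of which 292 followed the end of another Ercc6l2 transcript. Over all host introns, 20.7% of the intronic cDNAs lay within 1000 nt downstream of an annotated transcript end, against 13.0% at an even spread. Of these 7672 cDNAs, 5095 followed an end of the host gene and 2577 the end of another gene. The 7672 include 446 cDNAs of Gm30211, most of them next to the kappa J segments described below. Sites in a RefSeq exon on the same strand made up 14.0% of intronic cDNAs, against 9.57% at an even spread. In protein-coding hosts, last introns held 17.0% of the cDNAs and 7.99% of the intron length, whereas first introns held 18.6% and 30.9%, and 81.8% of the cDNAs near 5′ splice sites were in internal introns, which made up 75.3% of the introns of these genes.

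The other leading hosts varied in layout. Kmt2e, a chromatin regulator gene, held 268 intronic cDNAs (208 in replicate 1 and 35 in replicate 2), of which 264 lay over 7141 nt of its first intron and none within 1000 nt after an annotated end. Dock2 encodes an activator of Rac in lymphocyte migration and had 254 (211 and 20), with 235 in intron 22. Btla, which encodes an inhibitory receptor of lymphocytes, had 348 (236 and 19), with 286 in intron 1, and Mir155hg, the host transcript of miR-155, had 201 (159 and 29). A630001G21Rik had 452 (314 and 49) and 1810026B05Rik 246 (181 and 11), the lowest replicate 2 count of the 20 hosts. In Luc7l2, which encodes a U1 snRNP-associated splicing factor, 356 cDNAs (266 and 39) were spread over 6 introns with 14.9% within 50 nt of a 5′ splice site and 50.6% within 1000 nt after an annotated end. Rbm39, a splicing factor gene, had 252 (196 and 28) over 8 introns, with 17.1% and 40.5% in these positions, and Taf15, which encodes an RNA-binding protein of the FET family, had 194 (128 and 23). Ptprc encodes the leukocyte phosphatase CD45 and had 212 (152 and 13) over 12 introns, 16.5% near a 5′ splice site. Snx2 had 228 (150 and 55), of which 75.4% lay near a 5′ splice site. Luc7l2, Rbm39 and Ptprc thus had sites in many introns, whereas Kmt2e, Dock2 and Btla had most of theirs in a single intron.

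Cdk8, which encodes a kinase of the Mediator complex, was of another kind. Exons within the span of the gene held 20 cDNAs, and its introns held 218 (151 in replicate 1 and 61 in replicate 2). Of these intronic cDNAs, 213 lay within 345 nt of intron 2, where the windows held 16.1% U. The intron of Cmss1 resembled it, with 180 cDNAs (123 and 54) within 160 nt and 11.3% U. These stretches of few U were not annotated beyond the GENCODE and RefSeq genes used here, and whether the cDNAs came from the named introns was not tested, and the same holds for the single sites of Gm14321 and Gm12781.

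Gm30211 is a lincRNA gene that spans the kappa light chain J segments, and its 470 intronic cDNAs (326 in replicate 1 and 115 in replicate 2) mostly lay next to them. A J segment ends in the 5′ splice site that is joined to the constant exon after the locus has recombined. For the kappa J segments this end was counted here as a transcript end. Of the 470 cDNAs, 446 were counted within 1000 nt after a transcript end and 0 within 50 nt of a 5′ splice site. The 50 nt after each kappa J segment (chromosome 6, plus strand, same capitals) are printed because the segments differed.
Igkj1 (chr6:70722600-70722649, plus strand): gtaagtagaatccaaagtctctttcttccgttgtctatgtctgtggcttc
Igkj2 (chr6:70722959-70723008, plus strand): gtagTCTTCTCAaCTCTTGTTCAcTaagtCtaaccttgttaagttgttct
Igkj3 (chr6:70723261-70723310, plus strand): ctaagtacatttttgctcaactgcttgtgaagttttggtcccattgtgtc
Igkj4 (chr6:70723586-70723635, plus strand): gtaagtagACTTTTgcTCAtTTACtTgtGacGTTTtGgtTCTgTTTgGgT
Igkj5 (chr6:70723928-70723977, plus strand): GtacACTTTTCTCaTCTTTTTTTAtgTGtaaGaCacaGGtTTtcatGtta

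After Igkj5 there were 191 cDNAs, 104 in replicate 1 and 75 in replicate 2. After Igkj4 there were 170 (133 and 35), and after Igkj2 74 (64 and 5). No site was called after Igkj1 or Igkj3. Igkj3, which is known as a non-functional segment, is followed by CT and not by GT in the reference. Igkj1 is followed by GTAAGT and by a T-rich stretch that carried no capital. At the lambda locus, 16 cDNAs (13 and 0) followed Iglj2. Crosslinks after heavy chain J segments, and 20 cDNAs after Iglj1 of the lambda locus, fell outside the intronic class. Which segments the cells had recombined was not measured.

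The 10 single sites with the most intronic cDNAs lay in varied sequence. Their surroundings (30 nt before to 30 nt after the highest site of the gene, same capitals) are shown because several of them differ from the U-rich stretches above, and that of Wwp2 is among the intron ends printed before.
Gm14321 (chr2:167778048-167778108, plus strand): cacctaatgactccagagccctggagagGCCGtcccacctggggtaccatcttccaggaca
Hmcn2 (chr2:31330597-31330657, plus strand): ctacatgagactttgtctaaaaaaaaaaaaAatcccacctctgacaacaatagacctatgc
Hivep3 (chr4:119753634-119753694, plus strand): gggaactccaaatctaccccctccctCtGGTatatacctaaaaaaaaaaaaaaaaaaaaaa
Cmss1 (chr16:57391650-57391710, minus strand): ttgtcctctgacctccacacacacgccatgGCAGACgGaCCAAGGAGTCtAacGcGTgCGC
Gm12781 (chr7:34654405-34654465, plus strand): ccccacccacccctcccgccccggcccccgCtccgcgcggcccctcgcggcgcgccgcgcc
Rrm2b (chr15:37943269-37943329, minus strand): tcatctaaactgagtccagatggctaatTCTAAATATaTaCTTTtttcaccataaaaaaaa
Strbp (chr2:37514055-37514115, minus strand): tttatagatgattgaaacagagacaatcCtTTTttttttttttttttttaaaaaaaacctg
Gm35769 (chr15:24857504-24857564, minus strand): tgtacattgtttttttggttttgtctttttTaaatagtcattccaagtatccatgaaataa

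The Gm14321 site held 93 cDNAs, 69 in replicate 1 and 24 in replicate 2, at a C in a window of 12.9% U. In Hmcn2, 76 cDNAs (52 and 24) fell at an A inside a run of A. The sites of Hivep3, a zinc finger gene, held 48 (21 and 27) and 38 (16 and 22) on neighbouring nucleotides before a long run of A. Cmss1 had 39 (18 and 21) and Gm12781 37 (26 and 11) in windows of 3.23% and 6.45% U. In Rrm2b, which encodes a p53-inducible ribonucleotide reductase subunit, 35 cDNAs (14 and 21) lay in a window of 41.9% U whose next 31 nt occur 5 times in the genome. Strbp had 35 (19 and 16) in a run of T, Gm35769 48 (45 and 3) at a T before AAA, and Wwp2 47 (42 and 5). The Hivep3, Cmss1 and Rrm2b sites had more cDNAs in replicate 2 than in replicate 1, against a replicate 2 share of 18.1% over all intronic cDNAs.

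These features were counted over all members. Sites followed within 30 nt by a run of at least 10 A held 6.09% of intronic cDNAs and 0.635% of 3′UTR cDNAs. Sites whose next 31 nt occurred elsewhere in the genome held 5.47% and 2.00%, and sites with under 20% U in the window held 4.66% and 1.38%. At least 1 of the 3 features applied to 12.5% of intronic cDNAs, to 12.7% in replicate 1 and 24.1% in replicate 2, and to 8 of the 10 highest sites. The replicate 2 share was 29.5% at such sites (28.2 to 30.9%) and 18.9% at sites within 50 nt of a 5′ splice site (17.8 to 19.97%). An A run followed 2.60% of intronic sites with 1 cDNA and 21.1% of those with 10 or more, whereas in 3′UTRs the shares were 0.540% and 0.787%. Sites within 50 nt of a 5′ splice site ran the other way, with 19.2% of sites with 1 cDNA and 5.59% of those with 10 or more. Soft-masked repeats contained 45.2% of the intronic cDNAs, against 28.0% at an even spread and 46.9% of 3′UTR cDNAs. The sources used here do not say how reads with several matches were mapped, and the part of these features in the intronic counts was not tested.

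Gene lists were described against the background that 10.7% of protein-coding genes, and 23.0% of the 8060 with an exonic site in their span, hosted intronic cDNAs. The median was 5 over all host genes. Splicing regulators had the most hosts of the lists, with 29 of 37 genes hosting 1225 intronic cDNAs (852 in replicate 1 and 126 in replicate 2), with a median of 12 and 23.6% within 50 nt of a 5′ splice site. Luc7l2 held 356 of these and Rbm39 252, of which 202 and 186 lay in a RefSeq exon. After them came Mbnl1, a muscleblind splicing factor, with 106 (78 and 4), and Hnrnpd, which encodes AUF1, with 76 (55 and 6). All but 1 of the 37 had exonic cDNAs, and over all host genes intronic and exonic cDNAs had a Spearman correlation of 0.38. The list of B cell transcription factors, given below, had 14 hosts among 20 genes. Of the genes with detained introns or regulated retention in other work, 4 of 8 were hosts, with 168 cDNAs (107 and 22) and a median of 14. Mdm4, a p53 inhibitor gene, had 136 (85 and 19), Clk4, an SR protein kinase gene, 22 (17 and 3), Srsf7, also counted as a splicing regulator, 6 (5 and 0), and Ogt, the O-GlcNAc transferase gene, 4 (0 and 0).

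Of 9 genes with exons under Tia1 or Tial1 control in other cells, 5 were hosts. They held 53 cDNAs, 31 of replicate 1 and 4 of replicate 2. Of the 53, 27 (50.9%) were within 50 nt of a 5′ splice site, 22 of them in Tial1 and 5 in Ppp1r12a. Tial1 itself had 26 (13 and 4), with 22 near a 5′ splice site and 18 at the start of the intron printed above. Ppp1r12a had 18 (13 and 0). Fas, whose alternative exon is a known Tia1 target in human cells, had 3 (3 and 0), none near a 5′ splice site. Fgfr2 had 3 (2 and 0) and Nf1 3 (0 and 0).

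Of 20 B cell transcription factor genes, 14 were hosts, with 375 cDNAs (233 and 41) and a median of 20.5. Ebf1 had 69 (43 and 7), Ikzf3 61 (40 and 15), Ikzf1 57 (37 and 7) and Foxp1 39 (28 and 0), and 6 had none. B cell receptor signalling genes held 970 (725 and 70) in 10 of 18 genes, a median of 25, led by Prkcb, Dock2, Ptprc and then Blnk, the adaptor of Syk, with 36 (24 and 1). Of these, 6.08% lay near a 5′ splice site, and Prkcb (385 cDNAs) and Dock2 (254 cDNAs) had none there. In the LPS receptor and NF-kB list, 4 of 19 genes were hosts, with 137 cDNAs (99 and 9) and a median of 35.5, Cd180 with 63 (51 and 7), Rel, a subunit of NF-kB, with 61 (40 and 2), Map3k8 with 10 (8 and 0) and Traf6 with 3 (0 and 0). Antigen presentation had 5 of 10 genes and 92 cDNAs (77 and 0), a median of 2, with Cd74, the invariant chain, at 58 (49 and 0) and H2-Ab1 at 29 (23 and 0). Immunoglobulin constant genes had 3 of 12 and 33 cDNAs (27 and 0), a median of 15, 16 of them in Iglc2 after Iglj2 and 15 in Ighm. No intronic site of the last 2 lists was called in replicate 2.

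The cell type label was checked on exonic and intronic sites. B cell markers had 4069 exonic cDNAs in replicate 1 and 1059 in replicate 2, in 8 of 8 genes, and 111 intronic cDNAs in 5, with Cd79a and Cd79b among those at 0. T cell markers had 14 and 0 exonic cDNAs, myeloid markers 29 and 6, erythroid markers 25 and 3, and NK cell markers 0 and 0, and none of these 4 lists had an intronic cDNA. Cd3d, Cd3g and Csf1r were among the markers with no cDNA at all.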

How the data were processed

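Tia1 iCLIP reads had been processed by the authors with the iCount pipeline, with Bowtie and the builds mm9 and mm10 named in the submitters' processing notes. Each deposited value is a count of unique cDNAs at a nucleotide, signed by strand, and the authors filtered sites at a false discovery rate of 0.05 (100 permutations, 15 nt neighbourhood) on mm9 with Ensembl 59. No coordinate was converted here, since the authors had lifted the pooled list to mm10 (GRCm38) in the same row order. Replicate 1 held 639108 and replicate 2 165081 cDNAs, of which 98.9% and 99.1% lay at sites of the pooled list and were used.

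Sites were annotated with GENCODE M21 (Ensembl 96), and the shortest annotated intron containing a site was its host. The share at an even spread was the share of exon-free bases of each host intron, leaving out bases inside a shorter annotated intron, weighted by cDNAs. Repeats, RefSeq exons and sequences came from RefSeq on GRCm38. Intervals are exact (Clopper-Pearson, 95%). Tables were handled with pandas 2.3.3 and numpy 2.4.6, intervals with scipy 1.17.1 and plots with matplotlib 3.10.9 (Python 3.11.15), and the distance measure was tested on simulated data. The text names the 20 host genes, 10 introns and 10 sites with the most cDNAs, the 5 introns with the most near each splice site, and up to 4 genes per list, while further introns with high counts and Tial1 were added after their values were seen. Of the genes these rules name, some are not reported here. The members and lists were chosen with earlier results of these data known.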

Additional observations from a re-analysis of the deposited data

How the results depend on the processing

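Shares and ratios were recomputed under 73 alternatives, 32 of which moved a value by less than the replicate SD (or, for recurrence between replicates, stayed within the counting interval). The cause of the larger moves below was not tested, except where the alternative itself removes sites. Sites with at least 2 cDNAs gave an intronic share of 3.24%, 48.7% of cDNAs in the first 100 introns, a 5′ splice site ratio of 7.16 and 74.5% of replicate 2 cDNAs at sites of replicate 1. Sites with at least 5 cDNAs gave 1.96%, 84.3%, 4.62 and 94.6%, with a 3′ splice site ratio of 1.85 and a U difference of 11.6 points. Protein-coding hosts alone gave 3.55%, 32.9%, a 5′ ratio of 7.59 and 47.0%. Without the 10 most covered introns the share was 3.53%, the first 100 introns held 26.3% and recurrence was 46.1%. Sites more than 10 nt from an exon gave a 5′ ratio of 7.43. Counting each site once gave 5.71%, 32.9% and a 5′ ratio of 7.53. Without sites within 1 kb after a transcript end the share was 3.42%. The 5′ ratio was 4.45 within 100 nt, and the U difference was 16.3 points in 21 nt and 7.91 points in 61 nt. Matching sites within 15 nt gave a recurrence of 75.1%. The 3′ ratio crossed 1 in 4 settings, at 0.52 more than 10 nt from an exon, 0.80 without replicate 1, 0.89 with each site counted once and 0.91 within 100 nt. Leaving out each replicate gave intronic shares of 3.13 to 3.67%, 45.1 to 52.3% in the first 100 introns, 5′ ratios of 7.25 to 7.42, 3′ ratios of 0.80 to 1.27 and U differences of 13.0 to 14.4 points. The following settings were chosen after seeing the data. Without RefSeq exon sites the share was 3.69% and the 5′ ratio 7.65, without sites whose next 31 nt occur elsewhere the 5′ ratio was 7.41 and recurrence 50.6%, without sites followed by an A run recurrence was 49.9%, and exons of basic transcripts alone gave a share of 6.52%. No paired analysis was possible because both samples belong to 1 group. With 5119 intronic cDNAs in replicate 2, introns with few cDNAs could not be compared between replicates, and the depth before site calling was not used here.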
